A study of Mus musculus with 10 samples.

Results

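The genes described here are 32 mouse genes of glutathione metabolism and antioxidant defence. They cover the transcription factor NRF2 (gene Nfe2l2) with its inhibitor KEAP1, the enzymes that make, recycle and use glutathione, the superoxide dismutases, catalase, the glutathione peroxidases and the peroxiredoxins. They were taken by gene symbol, by a rule that uses no measured value, out of the 55385 genes of the deposited count table; the list of symbols was drawn up with earlier results of these data known. The RNA came from left ventricles of mice whose strain is labelled C56Bl6, in 2 groups of 5 libraries. Control mice ate a standard diet, whereas HFpEF mice ate a high-fat diet and were also given L-NAME, which blocks nitric oxide synthases; either regimen lasted 6 weeks. The regimen is used as a model of heart failure with preserved ejection fraction (HFpEF). Diet and L-NAME were given together, so what each contributed cannot be told apart. Age, sex and measures of heart function were not analysed here. Whether every library stems from its own mouse is not stated in the labels, and p-values then measure only how these libraries vary.

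NRF2 is held in the cytoplasm by KEAP1, which directs it to degradation. When reactive cysteines of KEAP1 are oxidised, NRF2 escapes, enters the nucleus and, with small MAF proteins, binds antioxidant response elements in the promoters of its target genes. Much of this control acts on the NRF2 protein, which RNA counts do not measure. Glutathione is a tripeptide made by glutamate-cysteine ligase (catalytic subunit Gclc, modifier subunit Gclm) and glutathione synthetase (Gss). Glutathione peroxidases use it to reduce peroxides, glutathione transferases join it to reactive compounds, and glutathione reductase (Gsr) regenerates it with NADPH. In the heart, where mitochondria respire at a high rate, superoxide is converted by dismutases to hydrogen peroxide, which catalase, glutathione peroxidases and peroxiredoxins then remove.

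Depth was 31555001 to 46108710 counts per library in Control, against 31286355 to 33604554 in HFpEF. The 2 largest totals were those of Control 4 and Control 5, so results were also computed without this pair. Levels are in CPM, a count per gene scaled to the size of its library after TMM adjustment, and means carry their SD (n = 5). A log2 fold change above 0 means a higher level in HFpEF, and its error is the standard error (SE). Each of 18491 genes was tested with the quasi-likelihood method of edgeR, p-values were adjusted over all of them (Benjamini-Hochberg), and a gene whose adjusted p lay below 0.05 was called. Markers of heart muscle were high in every library, as the label of the tissue implies. The summed level of 6 cardiomyocyte genes, led by Myh6, was 23443 to 24987 CPM in Control and 22474 to 24176 CPM in HFpEF. The lowest was HFpEF 1, and the other HFpEF libraries had at least 24097 CPM. Transcripts of the mitochondrial genome took 33.6% to 37.5% of the counts in Control and 36.2% to 38.5% in HFpEF, and leaving them out before scaling left the same 3 genes of the 32 called. The summed level of 6 macrophage genes, led by Lyz2, was 104 to 172 CPM in Control and 83.0 to 109.6 CPM in HFpEF. Of 4 atrial markers the sum, nearly all from Nppa, was 37.2 to 58.3 CPM in Control and 15.3 to 29.3 CPM in HFpEF, and of 5 skeletal muscle markers, led by Ckm, it was 556 to 731 CPM and 387 to 571 CPM. A single gene was called lower in each of the cardiomyocyte (Tnnt2), atrial (Nppa) and endothelial (Egfl7) lists, named after their values were seen, and the part of such differences in the results was not tested. In bulk tissue, fewer cells of a type and less RNA per cell cannot be told apart.

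The comparison asks whether transcripts of the antioxidant system differed between the ventricles of the HFpEF and Control groups. Catalase (Cat) rose in HFpEF, by 0.35 on the log2 scale. Gclm, the modifier subunit of the enzyme that limits glutathione synthesis, fell by 0.30, and Gpx1, the main cytosolic glutathione peroxidase, fell by 0.37. No other gene of the 32 was called, and neither NRF2 nor KEAP1 transcripts differed detectably. Of the 32 genes 31 passed the filter on low counts. The 3 calls are 9.68% of these 31, beside 5.33% of all genes tested. The single gene called higher stands beside 3.24% of all genes called higher, and the 2 called lower beside 2.09% called lower. An unadjusted p below 0.05 was found for 11 of the 31 (35.5%), 5 higher and 6 lower, beside 20.5% of all genes. In 4 of the 31 (12.9%) the values of the groups did not overlap, beside 6.81% of all genes. These were Cat and Sod2, higher in HFpEF, and Gclm and Gpx1, lower.

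The differences were small throughout, as the plot of fold changes by role shows. The median log2 fold change of the 31 genes was -0.02, and that of all genes tested was -0.01. When 1 library was left out, the median of the 31 genes ranged from -0.049 to 0.0025, highest without HFpEF 1. Among HFpEF libraries, HFpEF 1 was the lowest for Gpx3, Gpx4, Prdx2, Prdx3, Prdx5, Prdx6 and other members. It was the highest of them for Sod1, Gsta3, Gstt1 and Prdx4. For 16 of the 31 genes the whole 95% interval lay within a 1.2-fold change in either direction. In each library the 32 genes together held between 0.149% and 0.181% of all counts.

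**Figure D1:**
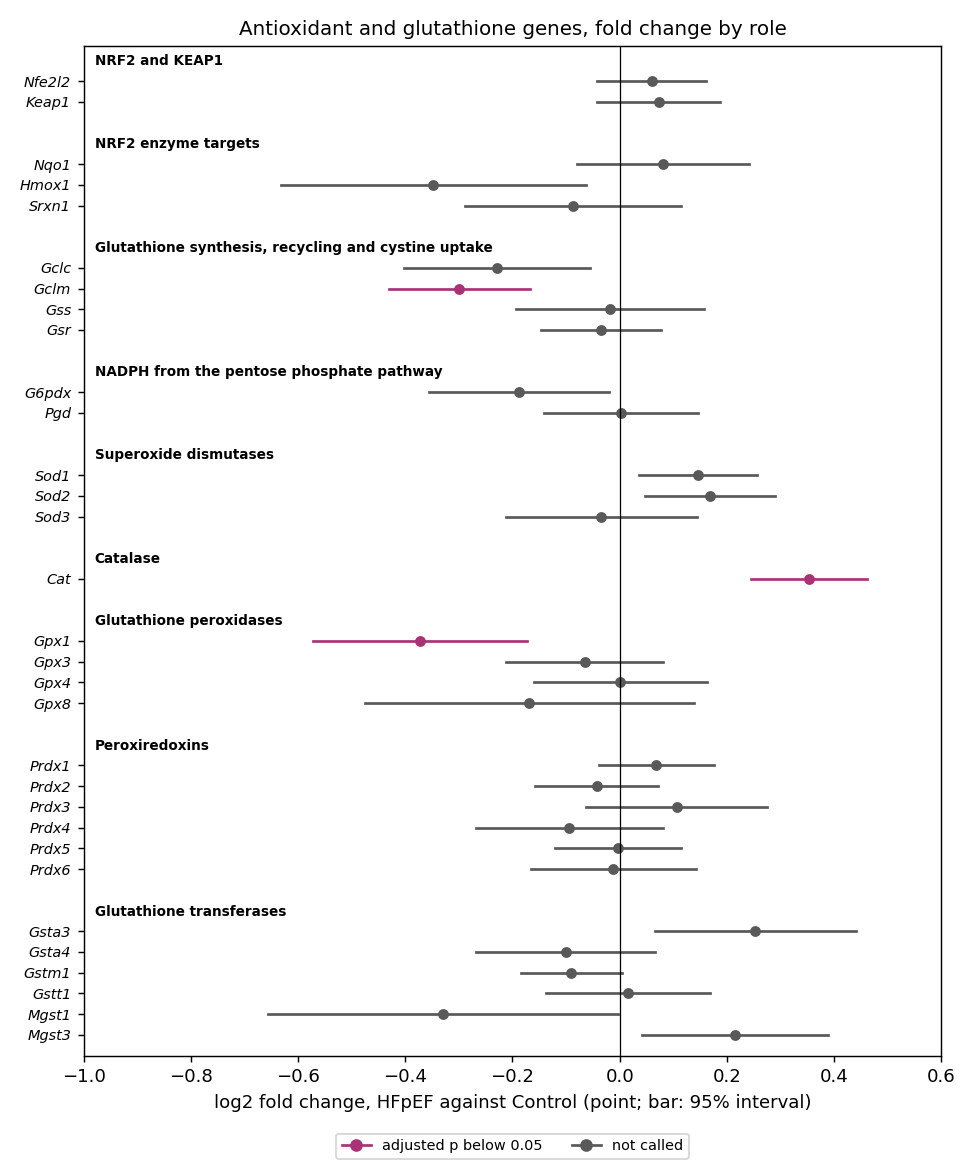
Log2 fold change of HFpEF against Control (x axis) for the 31 tested genes, grouped by role. Points are estimates from edgeR's quasi-likelihood fit, bars are 95% intervals, and coloured points mark the 3 genes called: Cat to the right of 0, Gclm and Gpx1 to the left.

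Promoter stretches of these genes are shown here because antioxidant response elements are the letters through which NRF2 binds its targets. RefSeq promoter windows (build GRCm38.p6, 250 bases before to 50 bases after the start site) matched 26 of the 32 genes. No window was found for Hmox1, Gclc, Gsr, Gsta4, Prdx6 and Sod3, so these were not searched. The element's core, TGACNNNGC, was searched on both strands. It was present in 9 of these 26 genes (34.6%), in 14.0% of all 27025 genes with a window and in 16.9% of the 11715 tested genes with a window. A gene was counted once if any of its windows held the core. Among genes with a window, 17.3% of those called higher in HFpEF held it, and 13.3% of those called lower. A match is a string of letters, not a measured binding site. Stretches outside the windows were not searched, so a gene without a match here may hold the core elsewhere. The 32 genes were chosen by pathway, NRF2 among them, so these shares are description only. The 9 stretches follow, each read 5′ to 3′ along its gene, with the match in capitals. A match on the opposite strand appears as the reverse complement of the core.
Nfe2l2: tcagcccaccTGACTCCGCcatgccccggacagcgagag
Srxn1: gcagtgggcaGCTAGGTCAgagtgagaca
Gclm: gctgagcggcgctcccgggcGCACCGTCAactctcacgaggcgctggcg
G6pdx: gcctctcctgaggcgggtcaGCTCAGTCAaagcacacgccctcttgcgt
Pgd: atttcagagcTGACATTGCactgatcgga
Sod1: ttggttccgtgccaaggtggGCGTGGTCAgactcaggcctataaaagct
Prdx1: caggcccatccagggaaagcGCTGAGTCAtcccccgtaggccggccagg
Gsta3: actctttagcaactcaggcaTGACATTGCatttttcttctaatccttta
Mgst1: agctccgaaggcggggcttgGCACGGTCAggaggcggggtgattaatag

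The stretch of Gclm lies at chr3:122245403-122245451 on the plus strand, and its match begins 134 bases before the start site. That of Sod1 lies at chr16:90220686-90220734 (plus), that of Prdx1 at chr4:116685446-116685494 (plus), and that of Gsta3 at chr1:21240444-21240492 (plus). Mgst1 has its stretch at chr6:138140451-138140499 (plus) and Srxn1 at chr2:152105542-152105570 (plus). On the minus strand lie those of Nfe2l2 at chr2:75704875-75704913, G6pdx at chrX:74428909-74428957 and Pgd at chr4:149166061-149166089. In Srxn1 and Pgd the match begins after the start site, and in the other 7 genes before it. The genes with a match did not move one way in HFpEF. Gclm was called lower and the other 8 were not called. Of these, Sod1, Gsta3, Prdx1 and Nfe2l2 had log2 fold changes above 0, G6pdx, Mgst1 and Srxn1 had values below 0, and Pgd stood at 0.00. A second string, the forkhead core TGTTTAC, was added after the values had been seen, because the series concerns FoxO1. It occurred in 1 of the 26 genes with a window (3.85%), and in 4.05% of all genes with one.

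Transcripts of the regulator and its inhibitor showed little difference. Nfe2l2, which encodes NRF2, was measured at 55.7, 60.9, 58.4, 56.5 and 61.2 CPM in Control 1 to 5 and 60.4, 61.4, 64.7, 61.7 and 56.9 CPM in HFpEF 1 to 5. The ranges overlapped, with HFpEF 3 the highest library and Control 1 the lowest. The estimate on the log2 scale was 0.06 ± 0.05 (SE; 95% interval -0.04 to 0.16, adjusted p = 0.525). Keap1, the adaptor that targets NRF2 for degradation, was measured at 22.1, 21.4, 21.6, 23.9 and 21.8 CPM in Control 1 to 5 and 23.1, 21.6, 25.3, 23.9 and 22.7 CPM in HFpEF 1 to 5. Control 4 stood above the other Control libraries and within the HFpEF range, and the groups overlapped. The estimate for Keap1 was 0.07 ± 0.05 (95% interval -0.04 to 0.19, adjusted p = 0.48). Exons of Keap1 overlap the gene Gm16754 on the opposite strand over 10.9% of their length. The strand of the libraries is not known, so reads of that stretch cannot be assigned.

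None of the 3 genes grouped here as enzyme targets of NRF2 (Hmox1, Nqo1 and Srxn1) was called. This group does not hold every target of NRF2. Genes of glutathione synthesis, with Gclm called lower among them, were placed under their own role. Hmox1 encodes heme oxygenase 1, which breaks down heme. It was measured at 5.89, 5.98, 6.22, 7.05 and 8.86 CPM in Control 1 to 5 and 4.01, 6.23, 5.84, 5.10 and 5.72 CPM in HFpEF 1 to 5. Control 5 was the highest library and HFpEF 1 the lowest, and the groups overlapped between 5.89 and 6.23 CPM. The log2 fold change of Hmox1 was -0.35 ± 0.13 (95% interval -0.63 to -0.06, adjusted p = 0.153). Without Control 5 it was -0.22 (adjusted p = 0.2996), and without Control 4 and Control 5 it was -0.16 (adjusted p = 0.511). Nqo1, a quinone reductase, averaged 24.9 ± 2.81 CPM in Control and 26.4 ± 2.17 CPM in HFpEF, with a log2 fold change of 0.08 ± 0.08 and an adjusted p of 0.595. Srxn1, sulfiredoxin, which restores over-oxidised peroxiredoxins, averaged 10.7 ± 1.19 CPM in Control and 10.1 ± 1.33 CPM in HFpEF, with a log2 fold change of -0.09 ± 0.09 and an adjusted p of 0.663. Control 5 was also the library with the highest sum of macrophage markers. Those 6 markers, of which 0 were called, all had log2 fold changes below 0, with a median of -0.33. Their sum was 172 CPM in Control 5 and 139 CPM in Control 2, and the lowest Control library had 104 CPM. The part of these cells in the values of Hmox1 was not tested.

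Both subunits of glutamate-cysteine ligase had lower means in HFpEF, and the modifier subunit was called. Gclm (ENSMUSG00000028124.15, mm10 chromosome 3, 122245557 to 122270732, plus strand, protein-coding) was measured at 18.0, 19.3, 15.7, 19.6 and 18.1 CPM in Control 1 to 5 and 14.1, 14.9, 14.7, 14.9 and 15.02 CPM in HFpEF 1 to 5. All 5 HFpEF libraries lay within 1 CPM of each other and below every Control library, of which Control 3 was the lowest. Its means were 18.1 ± 1.54 CPM in Control and 14.7 ± 0.346 CPM in HFpEF, a log2 fold change of -0.30 ± 0.06 (95% interval -0.43 to -0.17, adjusted p = 0.0112). The call held in each of the 10 fits that left out 1 library, with adjusted p up to 0.0360. It ended when Control 4 and Control 5 were left out together, at a log2 fold change of -0.26 and an adjusted p of 0.0604. Control 5, which had the highest macrophage sum, stood in the middle of its group for Gclm; the part of macrophages in this result was not tested. Gclc, the catalytic subunit, was measured at 11.7, 12.0, 11.3, 9.39 and 12.4 CPM in Control 1 to 5 and 9.58, 10.97, 8.96, 9.03 and 9.86 CPM in HFpEF 1 to 5. In Gclc, Control 4 stood low, within the HFpEF range, while the other 4 Control libraries stood above every HFpEF library. The log2 fold change of Gclc was -0.23 ± 0.08 (95% interval -0.40 to -0.05, adjusted p = 0.121), and without Control 4 it was -0.29 with an adjusted p of 0.0359. The ratio of Gclm to Gclc counts was 1.61 ± 0.275 in Control and 1.53 ± 0.123 in HFpEF. These ratios overlapped, with Control 4 the highest at 2.08.

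The later steps of glutathione synthesis and its recycling did not differ detectably. Gss, which adds glycine to complete the tripeptide, averaged 6.90 ± 0.399 CPM in Control and 6.83 ± 0.741 CPM in HFpEF, with a log2 fold change of -0.02 ± 0.08 (95% interval -0.19 to 0.16, adjusted p = 0.932). Gsr, which reduces oxidised glutathione, averaged 15.1 ± 0.434 CPM in Control and 14.7 ± 0.699 CPM in HFpEF, with a log2 fold change of -0.03 ± 0.05 (95% interval -0.15 to 0.08, adjusted p = 0.769). Slc7a11, the cystine carrier of the plasma membrane and a textbook NRF2 target, had 1 to 5 counts per library. It did not pass the filter on low counts, and with no filter it was tested and not called; a difference was not detectable at this depth.

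Of the 2 pentose phosphate enzymes that make NADPH, neither was called. G6pdx, glucose-6-phosphate dehydrogenase, was measured at 6.99, 6.87, 6.10, 7.11 and 6.35 CPM in Control 1 to 5 and 5.32, 6.33, 5.48, 6.36 and 5.87 CPM in HFpEF 1 to 5. The groups overlapped, since HFpEF 2 and HFpEF 4 stood above Control 3. Its log2 fold change was -0.19 ± 0.08 (95% interval -0.35 to -0.02, adjusted p = 0.192), and 13.6% of its exon length overlaps Ikbkg on the opposite strand. Pgd, 6-phosphogluconate dehydrogenase, the next NADPH-forming step, averaged 12.6 ± 1.15 CPM in Control and 12.7 ± 0.506 CPM in HFpEF, with a log2 fold change of 0.00 ± 0.07 and an adjusted p of 0.99.

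Superoxide dismutases were not called, although the mitochondrial and cytosolic enzymes had higher means in HFpEF. Sod2, the manganese enzyme of the mitochondrial matrix, was measured at 368, 368, 320.5, 365 and 381 CPM in Control 1 to 5 and 382, 405, 442, 410.4 and 387 CPM in HFpEF 1 to 5. Every HFpEF library was above every Control library, with HFpEF 1 and Control 5 less than 1 CPM apart, and Control 3 stood below the rest of its group. The log2 fold change of Sod2 was 0.17 ± 0.06 (95% interval 0.05 to 0.29, adjusted p = 0.104). DESeq2 called it, with an adjusted p of 0.0418, while the 10 fits without 1 library gave 0.0673 to 0.239. Sod1, the copper and zinc enzyme of the cytosol, was measured at 65.2, 66.9, 64.1, 59.0 and 61.3 CPM in Control 1 to 5 and 75.2, 68.3, 71.3, 70.6 and 64.6 CPM in HFpEF 1 to 5. HFpEF 5 lay inside the Control range and the other 4 HFpEF libraries above it. Its log2 fold change was 0.15 ± 0.05 (95% interval 0.04 to 0.26, adjusted p = 0.118). Sod3, the secreted enzyme, averaged 42.0 ± 5.73 CPM in Control and 41.1 ± 2.78 CPM in HFpEF, with a log2 fold change of -0.03 ± 0.08 and an adjusted p of 0.866.

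Catalase had the smallest p of the 31 genes. It is a heme enzyme, found mainly in peroxisomes, that splits hydrogen peroxide into water and oxygen. Cat (ENSMUSG00000027187.10, mm10 chromosome 2, 103453849 to 103485160, minus strand, protein-coding) was measured at 135, 137, 128, 143 and 146 CPM in Control 1 to 5 and 172, 184, 184, 177 and 164 CPM in HFpEF 1 to 5. The lowest HFpEF library stood above the highest Control library, and libraries of each group lay close together. The means were 138 ± 7.21 CPM in Control and 176 ± 8.51 CPM in HFpEF, 1.28-fold higher in HFpEF, with a log2 fold change of 0.35 ± 0.05 (95% interval 0.24 to 0.46, adjusted p = 0.000963). Cat was called under all 19 alternatives computed, with log2 fold changes of 0.33 to 0.40 and adjusted p of at most 0.00875. Red blood cells are rich in catalase and peroxiredoxin 2 and carry their transcripts while immature. The summed level of 6 erythroid markers, led by Hba-a2, was 440 to 635 CPM in Control and 411 to 713 CPM in HFpEF, with 0 of 6 called. Its means were 524 CPM in Control and 606 CPM in HFpEF. Within HFpEF the libraries ranked alike for this sum and for Cat, from HFpEF 3 (713 CPM) down to HFpEF 5 (411 CPM). HFpEF 5 had the lowest sum of all libraries, with Cat at 164 CPM. Control 5 had the highest of both in its group, while the lowest sum was in Control 1 and the lowest Cat in Control 3. The part of red blood cells in the Cat values was not tested.

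**Figure D2:**
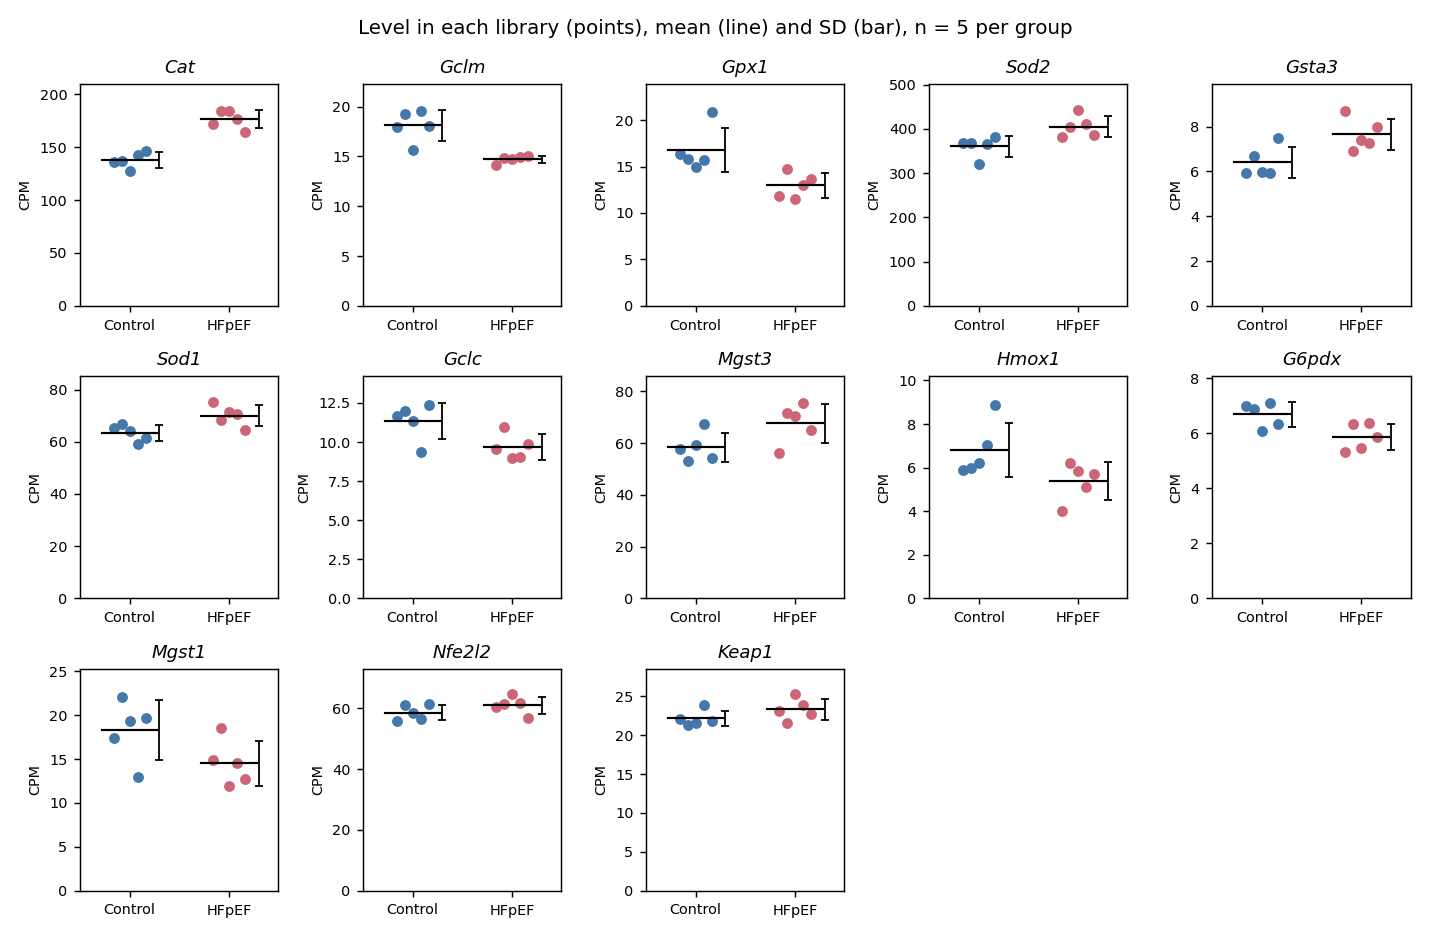
Level in CPM (y axis, from 0) of 13 genes in each library of Control and HFpEF. Points are libraries, lines the group means and bars the SD (n = 5); Cat, Gclm, Gpx1 and Sod2 show no overlap between the groups, and the other 9 genes overlap.

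Among the glutathione peroxidases, Gpx1 fell and the others had no call. Gpx1 encodes the selenium-dependent enzyme of cytosol and mitochondria (ENSMUSG00000063856.7, mm10 chromosome 9, 108338903 to 108340343, plus strand, protein-coding). It was measured at 16.4, 15.8, 14.99, 15.6 and 20.9 CPM in Control 1 to 5 and 11.9, 14.7, 11.6, 13.0 and 13.7 CPM in HFpEF 1 to 5. All HFpEF libraries were below all Control libraries, with 14.7 CPM in HFpEF 2 and 14.99 CPM in Control 3 nearest to each other. Control 5 stood far above the rest of its group. The means were 16.7 ± 2.37 CPM in Control and 13.0 ± 1.302 CPM in HFpEF, a log2 fold change of -0.37 ± 0.09 (95% interval -0.57 to -0.17, adjusted p = 0.0315). This call depended on single libraries. It held in 4 of the 10 fits without 1 library and ended without Control 1 (adjusted p = 0.0632), Control 2 (0.0503), HFpEF 1 (0.0617), HFpEF 3 (0.0904), HFpEF 4 (0.0699) or HFpEF 5 (0.0505). Without Control 5 the log2 fold change was -0.27 with an adjusted p of 0.0425, and without Control 4 and Control 5 it was -0.28 with 0.0786. Control 5 had the highest sum of macrophage markers, 172 CPM, and the highest Gpx1. Within HFpEF, the highest macrophage sum (109.6 CPM) and the highest Gpx1 (14.7 CPM) were both in HFpEF 2. Control 1 had the lowest macrophage sum of its group, 104 CPM, with Gpx1 at 16.4 CPM. The part of macrophage RNA in this result was not tested.

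The other 3 glutathione peroxidases had intervals that included 0. Gpx3, the plasma enzyme, averaged 94.2 ± 7.32 CPM in Control and 90.1 ± 8.69 CPM in HFpEF, with a log2 fold change of -0.06 ± 0.07. Gpx4, which reduces lipid peroxides in membranes and guards against ferroptosis, averaged 57.8 ± 5.28 CPM in Control and 57.9 ± 5.97 CPM in HFpEF, with a log2 fold change of 0.00 ± 0.08 and a 95% interval of -0.16 to 0.16. Gpx8, a membrane protein of the endoplasmic reticulum, was scarce and averaged 1.83 ± 0.258 CPM in Control and 1.63 ± 0.235 CPM in HFpEF, with a log2 fold change of -0.17 ± 0.14. Their adjusted p were 0.65, 0.996 and 0.556. The table holds 2 entries named as copies of Gpx4, so its counts are less certain.

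None of the 6 peroxiredoxins was called. These thiol peroxidases reduce hydrogen peroxide with electrons from thioredoxin or, for Prdx6, from glutathione. The mitochondrial Prdx3 had the highest log2 fold change, 0.11 ± 0.08 (95% interval -0.06 to 0.28, adjusted p = 0.487), with means of 64.4 ± 5.66 CPM in Control and 69.3 ± 7.90 CPM in HFpEF. Prdx4, of the secretory pathway, had the lowest, -0.09 ± 0.08 (adjusted p = 0.568), with means of 5.22 ± 0.426 CPM in Control and 4.90 ± 0.258 CPM in HFpEF. For the cytosolic Prdx1 and Prdx2 the log2 fold changes were 0.07 ± 0.05 and -0.04 ± 0.05, and Prdx2 averaged 87.0 ± 3.82 CPM in Control and 84.5 ± 5.68 CPM in HFpEF. For Prdx5, found in several compartments, and Prdx6 they were -0.00 ± 0.06 and -0.01 ± 0.07, with 95% intervals of -0.12 to 0.11 and -0.17 to 0.14. Prdx1, Prdx2 and Prdx6 have pseudogene entries in the table with which RSEM could divide reads, and 19.1% of the exon length of Prdx5 overlaps Trmt112 on the opposite strand.

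The glutathione transferases differed among themselves and none was called. Gsta3, an alpha-class transferase, was measured at 5.92, 6.69, 5.97, 5.94 and 7.49 CPM in Control 1 to 5 and 8.70, 6.92, 7.40, 7.26 and 7.97 CPM in HFpEF 1 to 5. HFpEF 1 was the highest library, and Control 5 stood inside the HFpEF range. Its log2 fold change was 0.25 ± 0.09 (95% interval 0.07 to 0.44, adjusted p = 0.113), and 0.33 with an adjusted p of 0.0364 without Control 5. Mgst3, a microsomal enzyme, was measured at 57.8, 53.0, 59.2, 67.5 and 54.1 CPM in Control 1 to 5 and 56.1, 71.6, 70.4, 75.5 and 65.1 CPM in HFpEF 1 to 5. HFpEF 1 and HFpEF 5 lay inside the Control range, and the other 3 HFpEF libraries stood above every Control library. The log2 fold change of Mgst3 was 0.22 ± 0.08 (95% interval 0.04 to 0.39, adjusted p = 0.146), and 0.28 with an adjusted p of 0.0269 without HFpEF 1.

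Mgst1, the other microsomal transferase, had a lower mean in HFpEF. It was measured at 17.3, 22.1, 19.3, 13.0 and 19.6 CPM in Control 1 to 5 and 14.8, 18.5, 11.9, 14.5 and 12.7 CPM in HFpEF 1 to 5. The spread within each group was wide, with Control 2 highest and HFpEF 3 lowest, and Control 1 and Control 4 lay inside the HFpEF range. Control 2 and Control 5, with the 2 highest macrophage sums, were also the 2 highest libraries for Mgst1, and the part of those cells was not tested. Its log2 fold change was -0.33 ± 0.15 (95% interval -0.66 to -0.00, adjusted p = 0.24). Gstm1, a mu-class enzyme of the cytosol, averaged 145 ± 5.76 CPM in Control and 136 ± 3.26 CPM in HFpEF, with a log2 fold change of -0.09 ± 0.04 and an adjusted p of 0.265. Gsta4, which acts on the lipid aldehyde 4-hydroxynonenal, had a log2 fold change of -0.10 ± 0.08 (adjusted p = 0.511). Gstt1 had 0.02 ± 0.07 (adjusted p = 0.932). Alpha and mu transferases have close paralogs, between which short reads may be divided, so their counts are less certain.

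**Figure D3:**
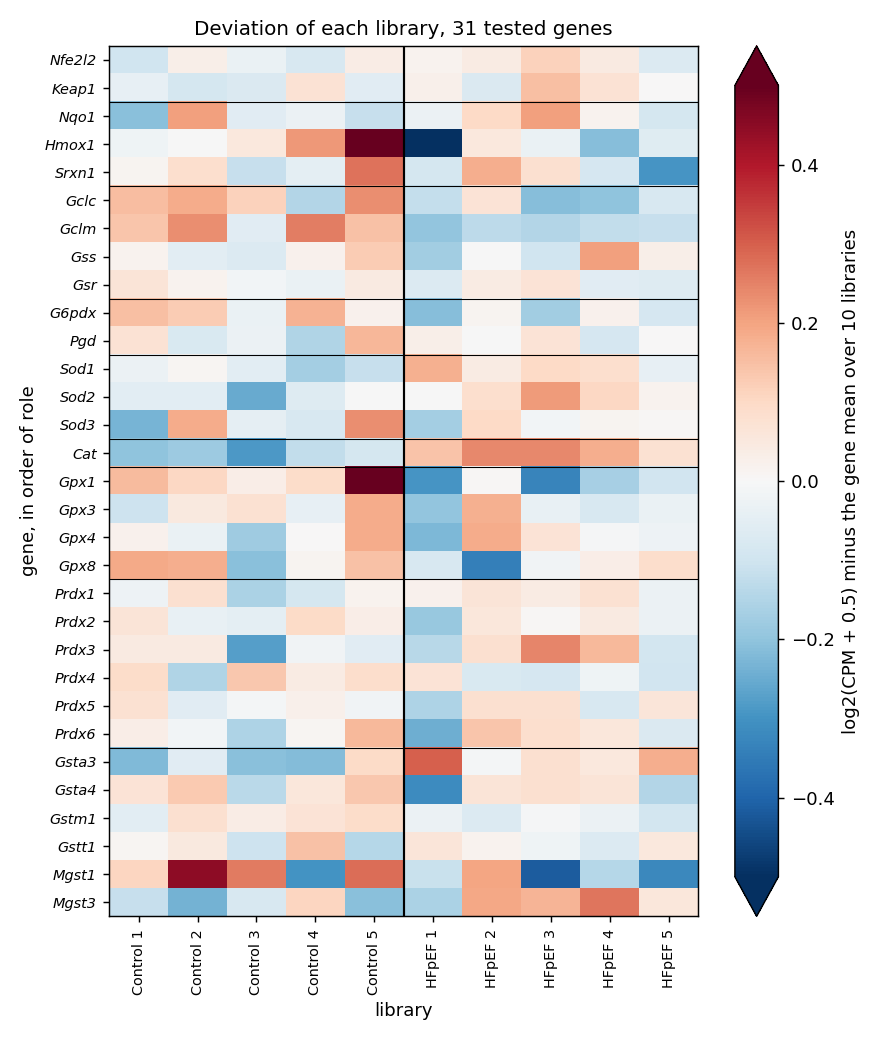
Deviation of each library (columns) from the gene's mean over the 10 libraries, as log2(CPM + 0.5), for the 31 tested genes (rows, by role). Colours end at 0.5 in either direction; Cat is below its mean in all Control and above it in all HFpEF libraries, while Hmox1 passes the ends of the scale in Control 5 (above) and HFpEF 1 (below).

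Levels between genes can be compared only per length, so CPM were divided by the length of all annotated exons of each gene (GENCODE M21). On this scale the Control mean was highest for Gstm1 (98.3 CPM per kb), followed by Mgst3 (53.2), Cat (52.7), Gpx3 (51.9), Prdx3 (43.6), Sod2 (36.0) and Gpx4 (33.5). The ranges of Mgst3, Cat and Gpx3 overlapped in Control. The glutathione synthesis enzymes were far lower, with 3.01 CPM per kb for Gclc, 2.88 for Gclm and 1.17 for Gss. Slc7a11 was the lowest, at 0.00668 CPM per kb. In HFpEF, Cat reached 67.4 CPM per kb and Mgst3 61.7, and Gstm1 was still the highest, at 92.3. Exon union lengths do not account for which isoform is used.

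**Figure D4:**
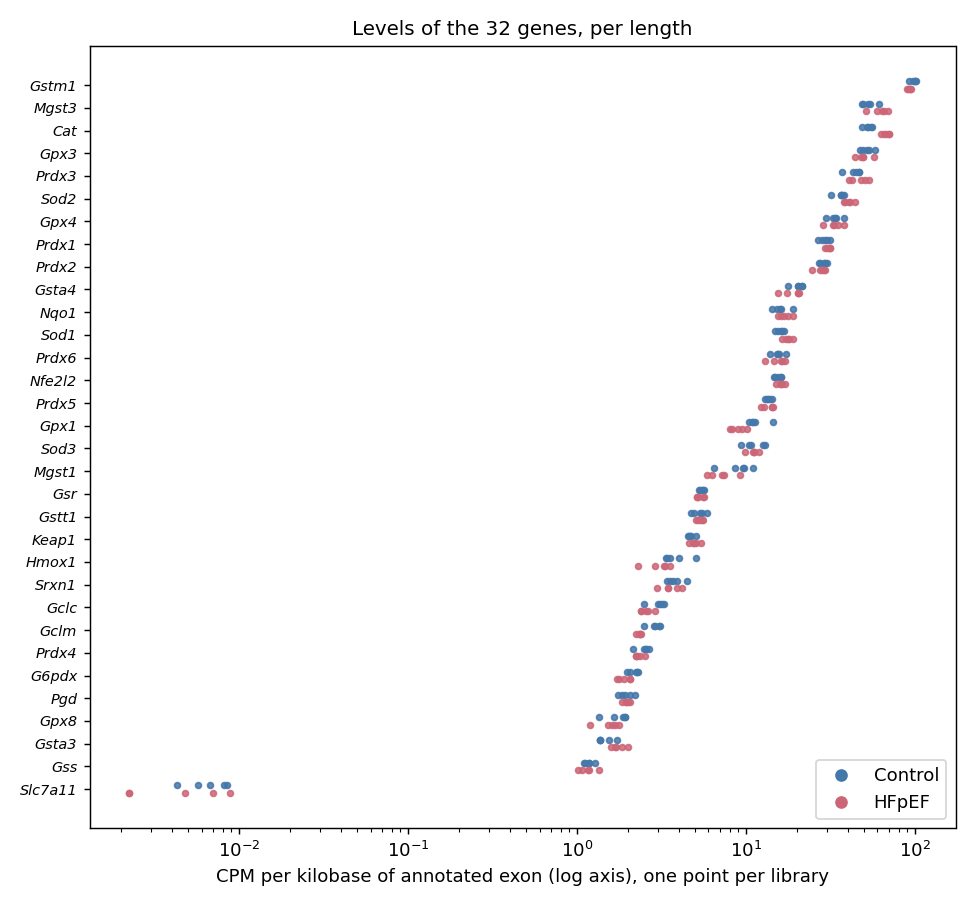
Level of each of the 32 genes per kilobase of annotated exon (x axis, log scale), ordered by the Control mean, with 1 point per library. Levels span from Gstm1 near 98.3 CPM per kb to Slc7a11 at 0.00668 CPM per kb in Control.

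Catalase made up more of the transcripts for peroxide-removing enzymes in every HFpEF library than in any Control library. Cat, Gpx1, Gpx3, Gpx4 and the 6 peroxiredoxins were summed per length. Catalase held 18.7% ± 0.393 of this sum in Control and 22.8% ± 0.913 in HFpEF. The Control libraries lay between 18.4% and 19.3%, all below the HFpEF libraries at 22.1% to 24.3%. The share of Gpx1 was 4.10% ± 0.403 in Control and 3.04% ± 0.280 in HFpEF. The 6 peroxiredoxins together held 47.01% ± 1.55 in Control and 46.1% ± 1.16 in HFpEF, with overlapping ranges. All these shares rest on exon union lengths, which do not account for which isoform is used, so their absolute sizes are less certain. The ratio of Cat to Gpx1 per length was 4.59 ± 0.442 in Control and 7.56 ± 0.872 in HFpEF. Cat and Gpx1 were called genes, so these shares restate their differences on another scale and are given without a test.

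Other genes of the same pathways were read from 7 lists of genes outside the 32, which were chosen with earlier results of these data known. Of the 124 genes of these lists that were tested, 15 were called higher and 2 lower, beside 3.24% and 2.09% of all genes tested. Their median log2 fold change was -0.00, and that of all genes was -0.01. Among 12 partners and regulators of NRF2, 2 were called higher and 0 lower, with a median of 0.08. Nfe2l1, the relative of NRF2 that controls proteasome genes, rose, with means of 234 ± 15.3 CPM in Control and 314 ± 21.6 CPM in HFpEF (log2 fold change 0.43 ± 0.06, adjusted p = 0.000739). Maff, a small MAF partner, rose by 0.44 in log2 units (adjusted p = 0.034), a call held in 3 of the 10 fits without 1 library.

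Other target genes of NRF2 were mostly without a call. Of 18 tested, 1 was called higher, 1 lower and 16 not, with a median of -0.03. Tkt, transketolase of the pentose phosphate pathway, fell, with means of 21.3 ± 1.21 CPM in Control and 17.0 ± 1.13 CPM in HFpEF (log2 fold change -0.33 ± 0.06, adjusted p = 0.00538). Me1, the cytosolic malic enzyme, which also makes NADPH, rose, with means of 69.1 ± 9.32 CPM in Control and 90.5 ± 4.31 CPM in HFpEF (log2 fold change 0.39 ± 0.08, adjusted p = 0.0119). Both calls held in all 10 fits without 1 library. These 2 targets moved in opposite directions.

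Of 33 other glutathione enzymes tested, 2 were called higher and 0 lower, beside 3.24% and 2.09% of all genes tested. The median of the list was -0.03. Both called genes act on the breakdown side of the glutathione cycle, but other breakdown genes of the list were not called. Chac2, which cleaves glutathione, rose by 0.48 on the log2 scale (3.41 ± 0.311 CPM in Control and 4.73 ± 0.589 CPM in HFpEF, adjusted p = 0.0153). Oplah, 5-oxoprolinase, which returns the cleaved product to glutamate, rose by 0.25 (35.1 ± 1.91 CPM in Control and 41.8 ± 2.62 CPM in HFpEF, adjusted p = 0.013). Both held in all 10 fits without 1 library. With both Control 4 and Control 5 left out, Chac2 was no longer called (adjusted p = 0.0564).

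In the thioredoxin system and the methionine sulfoxide reductases, 3 of 14 genes were called higher and 0 lower, with a median of 0.07. Msrb3, which repairs oxidised methionine, rose, with means of 58.6 ± 5.82 CPM in Control and 78.5 ± 3.75 CPM in HFpEF (log2 fold change 0.42 ± 0.06, adjusted p = 0.00155). Txnip, which binds and inhibits thioredoxin, had the largest difference of this list, 276 ± 76.8 CPM in Control and 570.4 ± 111 CPM in HFpEF (log2 fold change 1.05 ± 0.21, adjusted p = 0.0229). The Txnip call ended without Control 3 (adjusted p = 0.0598) and without Control 4 and Control 5 together (0.0705), and 19.4% of its exon length overlaps Gm15441 on the opposite strand. Sesn3, a sestrin, rose by 0.21 in log2 units (adjusted p = 0.0437), held in 3 of the 10 fits. The genes called in this list include an inhibitor of thioredoxin beside a repair enzyme.

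The list of other sources of NADPH also holds NAD kinases, which supply NADP and do not reduce it, and counts Nnt by 2 identifiers. Of its 16 tested identifiers, 5 were called higher, beside 3.24% of all genes tested, and 0 lower. The median log2 fold change of this list was 0.14. Aldh1l2, the mitochondrial enzyme that oxidises formyl-tetrahydrofolate, rose, with means of 4.91 ± 0.939 CPM in Control and 9.03 ± 1.11 CPM in HFpEF (log2 fold change 0.88 ± 0.12, adjusted p = 0.00082). Of its exon length 14.1% overlaps D10Wsu102e on the opposite strand. Me1, given above, belongs to this list too. H6pd, the hexose-6-phosphate dehydrogenase of the endoplasmic reticulum, rose by 0.21 in log2 units (adjusted p = 0.0263, held in 4 of 10 fits), and the mitochondrial malic enzyme Me3 rose by 0.21 (adjusted p = 0.0352, 3 of 10). The fifth call, named after its value was seen, was Nadk2, mitochondrial NAD kinase, at 0.27 (adjusted p = 0.0383, 4 of 10). Without Control 4 and Control 5 together, Me3 (adjusted p = 0.0723) and Nadk2 (0.0918) were not called. Over the alternatives computed the number of calls in this list ranged from 2 to 5. Nnt, the mitochondrial transhydrogenase, has 2 identifiers in the table whose exons overlap on the same strand. Their log2 fold changes were 0.21 and 0.16, with adjusted p of 0.272 and 0.159.

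Among the producers of superoxide and hydrogen peroxide, 2 of 18 tested genes were called higher and 1 lower, with a median of -0.09. Maob, monoamine oxidase B of the outer mitochondrial membrane, rose, with means of 17.1 ± 1.83 CPM in Control and 22.1 ± 2.17 CPM in HFpEF (log2 fold change 0.37 ± 0.08, adjusted p = 0.0149), held in all 10 fits. Pipox, peroxisomal sarcosine oxidase, fell by 1.36 on the log2 scale at a very low level (0.431 ± 0.0816 CPM in Control and 0.167 ± 0.0845 CPM in HFpEF, adjusted p = 0.0304, 5 of 10 fits), and was not called without Control 4 and Control 5 (0.084).

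Peroxisome biogenesis genes, which build the organelle that holds catalase, had 1 call of 16, higher, with a median of 0.01. Pex11a, which promotes peroxisome division, rose, with means of 7.55 ± 0.672 CPM in Control and 11.9 ± 0.918 CPM in HFpEF (log2 fold change 0.66 ± 0.08, adjusted p = 0.00021), and was called in all 10 fits. The other 15 were not called.

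The 3 calls among the 32 genes differed in how firmly they were held, as the plot of adjusted p by fit shows. Cat lay below 0.05 in every fit, Gclm in 18 of 19 alternatives and Gpx1 in 12 of 19. Of the genes not called in the main comparison, Gclc, Gsta3 and Mgst3 were each called in 1 of the 10 fits without 1 library, and Sod2 by DESeq2 but in none of these 10.

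**Figure D5:**
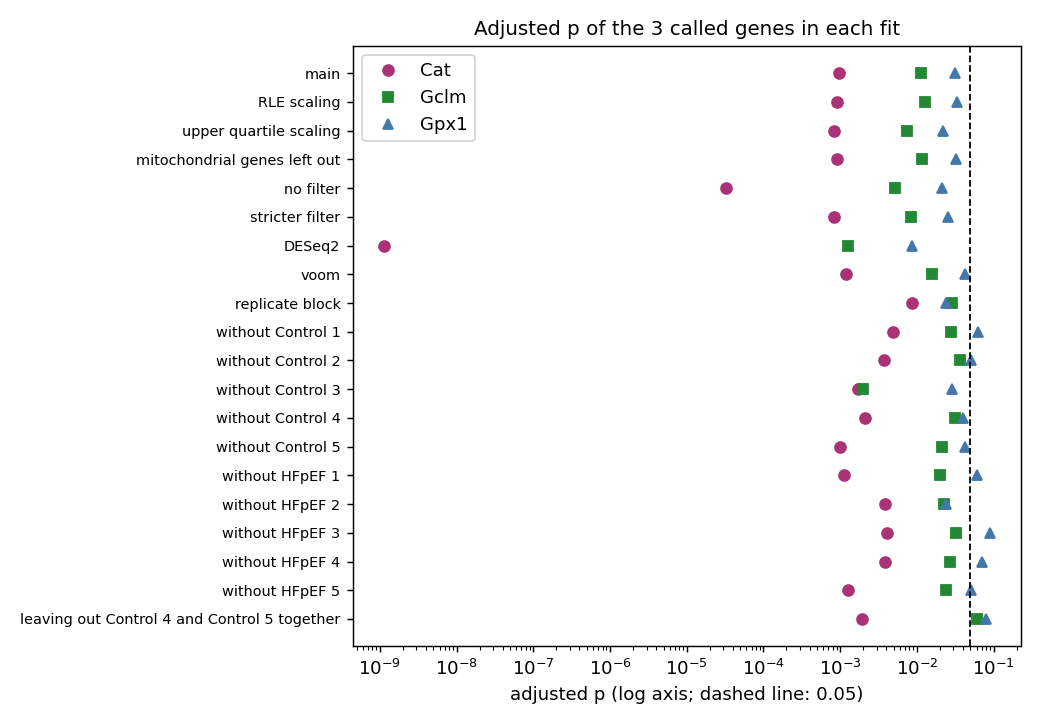
Adjusted p (x axis, log scale, dashed line at 0.05) of Cat, Gclm and Gpx1 under the main fit and each of 19 alternatives (y axis). Cat stays left of the line throughout, Gclm crosses it once, without Control 4 and Control 5, and Gpx1 crosses it in 7 fits.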

How the data were processed

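RNA-seq libraries of mouse left ventricle were analysed, 5 of Control and 5 of HFpEF. The deposited values are expected counts per gene, named here for RSEM, which divides reads that match several transcripts. Per the submitters' processing notes, which give no role to any of them, the tools were Bowtie2 2.1.0 and RSEM 1.2.15 and the genome build was mm10. The deposited counts are whole numbers and were used as they stand, and their annotation release and strand setting are not stated in the labels. The table also holds 92 ERCC spike-in rows, all at 0 counts, which were left out.

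Genes were kept by filterByExpr with a minimum count of 10 (18491 genes) and tested with edgeR 4.0.16 in R 4.3.3: scaling by TMM, a robust quasi-likelihood fit on group, and calls at a Benjamini-Hochberg adjusted p below 0.05. Each SE is the size of the log2 fold change divided by the square root of F. Exon lengths and coordinates come from GENCODE M21 (55144 identifiers matched). The code was tested on simulated data.

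The members and the lists of other pathway and marker genes were chosen with earlier results of these data known. All members are named. Values in every library are given for members with an unadjusted p below 0.05 and for Nfe2l2 and Keap1. Of each pathway list up to 4 called genes are named, those with the smallest p, with Nnt added and, after its value was seen, Nadk2, and of each marker list mentioned the most expressed gene. A gene of the pathway lists is not reported here, though counts include it. Alternatives were RLE and upper quartile scaling, mitochondrial genes left out, no filter, a filter of at least 1 CPM in all libraries, DESeq2 1.42.0, voom (limma 3.58.1), a replicate block and leaving out each library. Leaving out Control 4 and Control 5 together, the libraries of largest total, was chosen after seeing the data. Pairs of libraries within each group differed by more than sampling noise. RefSeq promoter windows were not found for 6 members, and no protein sequences were used here.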

Additional observations from a re-analysis of the deposited data

Results flagged for a closer look

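In 3 of the 64 sets formed by a member gene and a group, 1 library stood apart from the other 4 of its group by a gap that took up more than 0.71 of the group's range; chance alone gives about 1 in 20 such sets. Gpx1 in Control 5 was at 20.9 CPM, with the next Control library at 16.4 CPM and the lowest at 14.99 CPM. Sod2 in Control 3 was at 320.5 CPM, with the next at 365 CPM and the highest at 381 CPM. Keap1 in Control 4 was at 23.9 CPM, with the next at 22.1 CPM and the lowest at 21.4 CPM. All 3 were Control libraries, and a different one each time.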

How the results depend on the processing

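Cat, Gclm and Gpx1 kept their direction under all 19 alternatives. Over the tested members and alternatives, 542 values kept direction and call, 8 lost the call, 4 gained it and 35 changed sign, all of these 35 among 7 genes near 0. The number of members called higher was 2 under DESeq2, with Sod2 added, and 1 to 2 when 1 library was left out. Members called lower numbered 1 to 3 when 1 library was left out (3 without Control 4, with Gclc added), and 0 without Control 4 and Control 5, when the calls of Gclm and Gpx1 ended. Over all genes 985 were called, and 554 to 1101 when 1 library was left out, with 554 without HFpEF 3, 630 without Control 1 and 633 without HFpEF 4; DESeq2 gave 1448. The share of calls that were higher was 60.8%, and 53.9% under upper quartile scaling. No scaling moved the median of all genes by as much as 0.1. Calls in the pathway lists numbered 17, and 10 to 17 when 1 library was left out, lowest without HFpEF 4.

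Signs turned as follows on the log2 scale. Prdx5 was 0.0031 under RLE, 0.0032 under DESeq2 and 0.00013 without Control 4 and Control 5. Pgd was -0.010 under upper quartile scaling and -0.0035 under the stricter filter. Gpx4 was -0.012, -0.0057 and -0.0010 under upper quartile scaling, the stricter filter and voom. Without Control 4 and Control 5, Gss was 0.035, Sod3 0.013 and Prdx6 0.044. Leaving out 1 library gave ranges of -0.077 to 0.025 (Gss), -0.029 to 0.060 (Pgd), -0.092 to 0.033 (Sod3), -0.048 to 0.059 (Gpx4), -0.023 to 0.035 (Prdx5), -0.050 to 0.043 (Prdx6) and -0.015 to 0.067 (Gstt1). The cause was not tested.

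Control and HFpEF share replicate numbers 1 to 5, but same-numbered libraries did not deviate together (correlations of -0.11 to 0.0638, and 2 of 5 pairs best matched to their own number). A fit with the replicate block gave 744 calls and the same 3 members. Slc7a11, with 1 to 5 counts per library, was tested with no filter alone and was not called.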
